A study of Mus musculus with 6 samples.

Results

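The tumour necrosis factor (TNF) superfamily was followed in the spleens of lead-exposed and control mice. Its members were the probes whose single gene symbol begins with Tnfsf or Tnfrsf and a digit, or is Tnf, Lta, Ltb, Ltbr, Cd40, Cd40lg, Cd27, Cd70 or Fas. These were 46 of 35587 probes on the array, for 39 of 18069 genes with a probe of their own: 15 ligands and 24 receptors. A probe that names Tnfsf13 together with a second gene was not used. The family was taken up because Tnf was low in the exposed spleens in earlier results of the same data, so its own values are given as a description. Its probe stayed in the fit over all probes, but no p is given for it and it is left out of counts of tests. The other members were chosen by symbol and not by value.

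The exposed animals were female BALB/c mice that received 0.1 mM Pb (lead) from gestation day 8, and the controls were female BALB/c mice without it. All were sampled at postnatal day 21, an age close to weaning. Total spleen RNA from 3 Pb and 3 control mice was labelled with Cy5 and hybridised to CodeLink mouse whole genome arrays, 1 array per mouse. Neither the route of exposure nor the litter of an animal is given in the sources used here. The p-values measure only the spread between these samples.

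Ligands of the TNF superfamily are mostly trimeric proteins on the surface of immune cells, some of which are shed, and their receptors carry cysteine-rich domains outside the cell. Receptors with a death domain can start caspase cleavage, and many receptors, with or without that domain, activate the transcription factor NF-kB through TRAF adaptors. In the spleen, TNF and the lymphotoxins maintain B cell follicles and their stroma, BAFF keeps B cells alive, and CD40 and its ligand carry T cell help to B cells.

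Pb replicate 3 was left out because its values bore no relation to the probes of the other arrays (r of 0.0456 to 0.0484 with the controls across probes, against 0.950 to 0.955 between controls), and each comparison sets Pb replicates 1 and 2 against the 3 controls. Pb replicate 2 changed in brightness along the array, with medians of 20 array rows from -2.44 to 2.36 on the log2 scale relative to the control mean, and Pb replicate 1 was dim in array rows 121 to 140 (-0.67). Those smooth differences were removed before the comparison, and levels below are position-corrected log2 intensities, where 0 lies near the median of an array. In the corrected data the scaled median absolute deviation was still 0.590 in Pb replicate 2, against 0.293 in Pb replicate 1 and 0.236 to 0.263 in the controls. Members were compared between arrays, and the level of one member was not set against that of another. In these bulk samples, fewer cells of a type and less RNA per cell cannot be told apart.

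**Figure D1:**
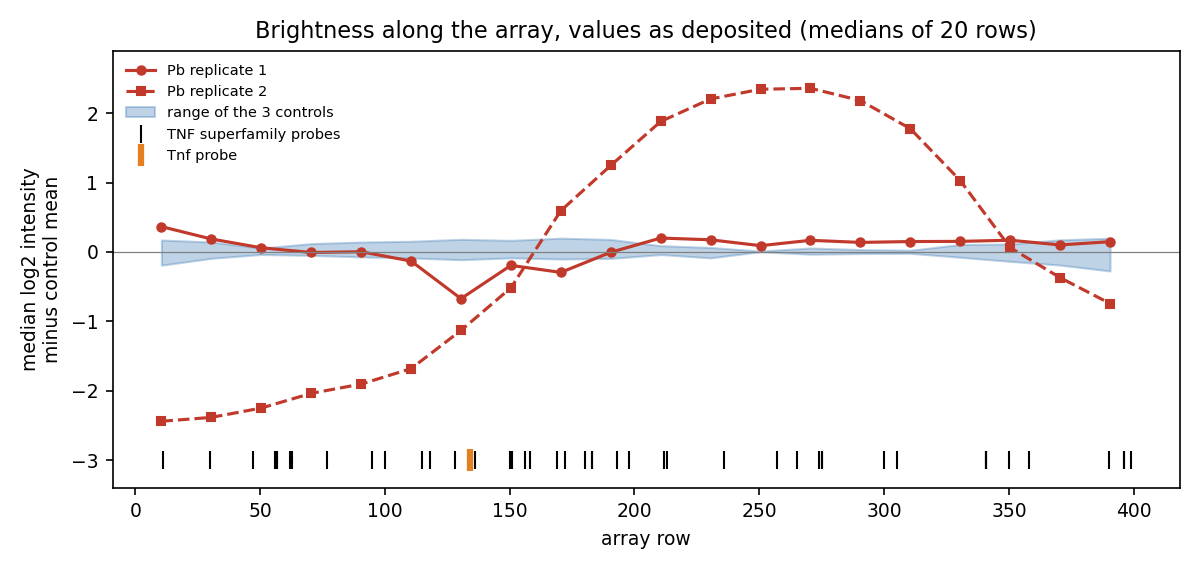
Median log2 intensity of Pb replicate 1 (circles) and Pb replicate 2 (squares) minus the mean of the 3 controls, as deposited, in successive blocks of 20 array rows, with the range of the controls shaded. Ticks mark the rows of the 46 TNF superfamily probes. Pb replicate 2 runs from -2.44 to 2.36, and the Tnf probe in row 134 lies where both Pb arrays were dim.

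Tnf, the inflammatory cytokine that gives the family its name, had the lowest difference among the tested members. Its level was -1.40 and -1.22 in Pb replicates 1 and 2, against -0.25, -0.07 and -0.10 in control replicates 1, 2 and 3. Both Pb arrays lay below all 3 controls, and the 2 Pb values were close to each other. The probe is dim: its mean over the arrays was -0.61, under the 50th percentile of all probes, and both Pb values lay lower still. The Pb minus control log2 difference was -1.17 (SE 0.17), a level 2.25-fold lower in Pb, with a control SD of 0.10 (n = 3). As deposited, the intensities were 0.304 and 0.228 in Pb, against 0.828, 0.969 and 1.17 in controls. Counted from the lowest difference, Tnf was number 335 of all tested probes.

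In the mouse genome Tnf lies on chromosome 17 between Ltb and Lta, which encode the lymphotoxins, as ordered in RefSeq for GRCm38.p6. The stretches upstream of Tnf and Ltb are shown because, after position correction, Tnf was low in both Pb arrays and its neighbour Ltb was not, a difference that for Ltb depends on the correction. Both are the 250 bases before each RefSeq start (GRCm38.p6), Tnf on the minus strand at chr17:35202008-35202257 and Ltb on the plus strand at chr17:35194257-35194506. Capitals mark matches to TATAAA, the letters of a TATA box, searched on both strands.
Tnf: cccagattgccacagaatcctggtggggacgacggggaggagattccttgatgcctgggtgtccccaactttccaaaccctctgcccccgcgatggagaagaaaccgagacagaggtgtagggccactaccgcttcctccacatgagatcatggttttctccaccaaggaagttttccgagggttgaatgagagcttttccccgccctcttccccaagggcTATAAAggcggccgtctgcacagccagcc
Ltb: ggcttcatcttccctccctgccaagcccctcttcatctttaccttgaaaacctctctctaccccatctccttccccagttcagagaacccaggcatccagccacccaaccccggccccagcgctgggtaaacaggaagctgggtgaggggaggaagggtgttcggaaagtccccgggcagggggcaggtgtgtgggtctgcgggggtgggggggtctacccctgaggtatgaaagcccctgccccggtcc

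The Tnf window held 1 match, 29 to 24 bases before the start, and the Ltb window held 0. Of 29 members found in the promoter table, 6 had the motif (Lta, Tnf, Tnfrsf17, Tnfrsf23, Tnfsf11 and Tnfsf18), or 20.7%, against 14.3% of all genes. Matches were counted anywhere in the 250 bases, and that of Lta lay 167 to 162 bases before the start. A match describes letters only, and binding was not measured.

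After position correction Lta and Ltb did not share the low level of Tnf. Lta was at 0.21 and 0.33 in Pb, against -0.04, 0.04 and -0.08 in controls, a log2 difference of 0.30 (95% confidence interval -0.10 to 0.70, limma adjusted p = 0.623). Ltb was at 5.80 and 5.75 in Pb, against 5.29, 5.74 and 5.75 in controls, a difference of 0.18 (-0.33 to 0.70, limma adjusted p = 0.770). The Pb arrays were above all 3 controls for each, Pb replicate 2 by under 0.01 for Ltb, and neither gene passed. These values rest on the position correction: their probes lie in array rows 118 and 100, and without correction the differences were -1.06 for Lta and -1.19 for Ltb. As deposited, Pb replicate 1 had an Lta intensity of 0.781 and Pb replicate 2 one of 0.374, against 1.09 to 1.16 in controls. For Ltb the deposited intensity was 56.6 in Pb replicate 1 and 7.80 in Pb replicate 2, against 34.1 to 58.8 in controls, so the Ltb level of Pb replicate 1 lay within the controls before any correction. With the neighbouring probes in place of the smooth surface, Lta had 0.39 and Ltb -0.64, and with all 6 arrays as deposited Ltb had -2.24, so the direction of Ltb is not settled.

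Of the 10 RefSeq genes within 5 places of Tnf on chromosome 17, 7 had a probe. None of the 7 lay below all controls in both Pb arrays, against 11.9% of all probes, and 7 probes are few for such a share. They were Aif1 (log2 difference 0.29), Lst1 (-0.09), Nfkbil1 (0.45), Ddx39b (0.72) and Atp6v1g2 (1.90, under the level filter), beside Lta and Ltb. For Lta, Ltb, Nfkbil1, Ddx39b and Atp6v1g2 the Pb arrays were above every control, which held for 13% of all probes. None of the 6 tested neighbours passed (limma adjusted p of 0.621 to 0.867).

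Neither receptor for TNF was low in Pb after position correction. Tnfrsf1a, the receptor with a death domain found on most cells, was at 2.96 and 2.80 in Pb, against 3.08, 2.80 and 2.87 in controls. The groups overlapped, with a difference of -0.04 (-0.47 to 0.40, limma adjusted p = 0.953). Tnfrsf1b, the receptor of lymphocytes and myeloid cells, was at -0.96 and -0.59 in Pb, against -0.97, -1.63 and -1.50 in controls. The Pb arrays were above the controls, Pb replicate 1 by a narrow margin, and the difference of 0.60 (-0.04 to 1.23) did not pass (limma adjusted p = 0.621). Ltbr, the lymphotoxin receptor of stromal and myeloid cells, was at -0.41 and -1.07 in Pb, against -0.15, -0.39 and -0.41 in controls. Pb replicate 1 was level with the lowest control, and the difference was -0.42 (-1.02 to 0.18, limma adjusted p = 0.625).

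**Figure D2:**
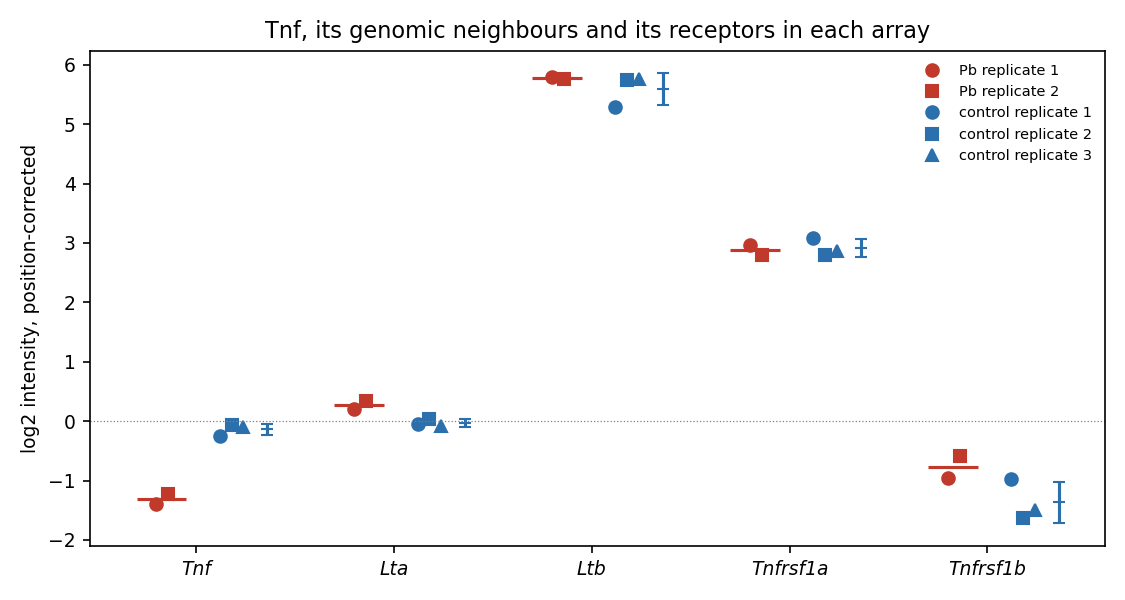
Position-corrected log2 intensity of Tnf, its genomic neighbours Lta and Ltb, and its receptors Tnfrsf1a and Tnfrsf1b in each array. Points are arrays, red bars the mean of 2 Pb arrays and blue bars the mean ± SD of 3 controls. Tnf is the gene with both Pb points (-1.40 and -1.22) well below the controls (-0.25 to -0.07).

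Across the family, 0 of the 36 tested probes other than Tnf passed the adjusted threshold of 0.05, against 0.0572% of all 24464 tested probes in limma. With Tnf the tested probes numbered 37, for 33 of the 39 genes. The other 9 probes lay under the level filter, the 30th percentile of the mean over arrays. At an unadjusted p under 0.05 there were 4 of these 36, against 7.23% of all probes. They were Tnfsf11 in array row 11, Tnfrsf9 and Cd27, with differences above 0, and Tnfsf9, with one below 0. The lowest adjusted p outside Tnf was 0.621, and the confidence intervals of tested members were 0.786 to 4.52 wide on the log2 scale.

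Counted over all 46 probes, both Pb arrays lay below all 3 controls for 6, or 13.0%, against 11.9% of all 34949 probes used. Without Tnf this was 5 of 45, or 11.1%. They were above all 3 controls for 8, or 17.4%, against 13% of all probes. The other 32 overlapped. The median difference was 0.04 (quartiles -0.38 and 0.31), against 0.03 (quartiles -0.25 and 0.31) over all probes. Of the members 21 lay below 0 and 25 above. The low level of Tnf was thus shared by few members, and their share was near that of all probes. The 2 Pb arrays deviated to the same side of the control mean for 28 of 46 members, or 60.9%, against 57.4% of all probes.

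**Figure D3:**
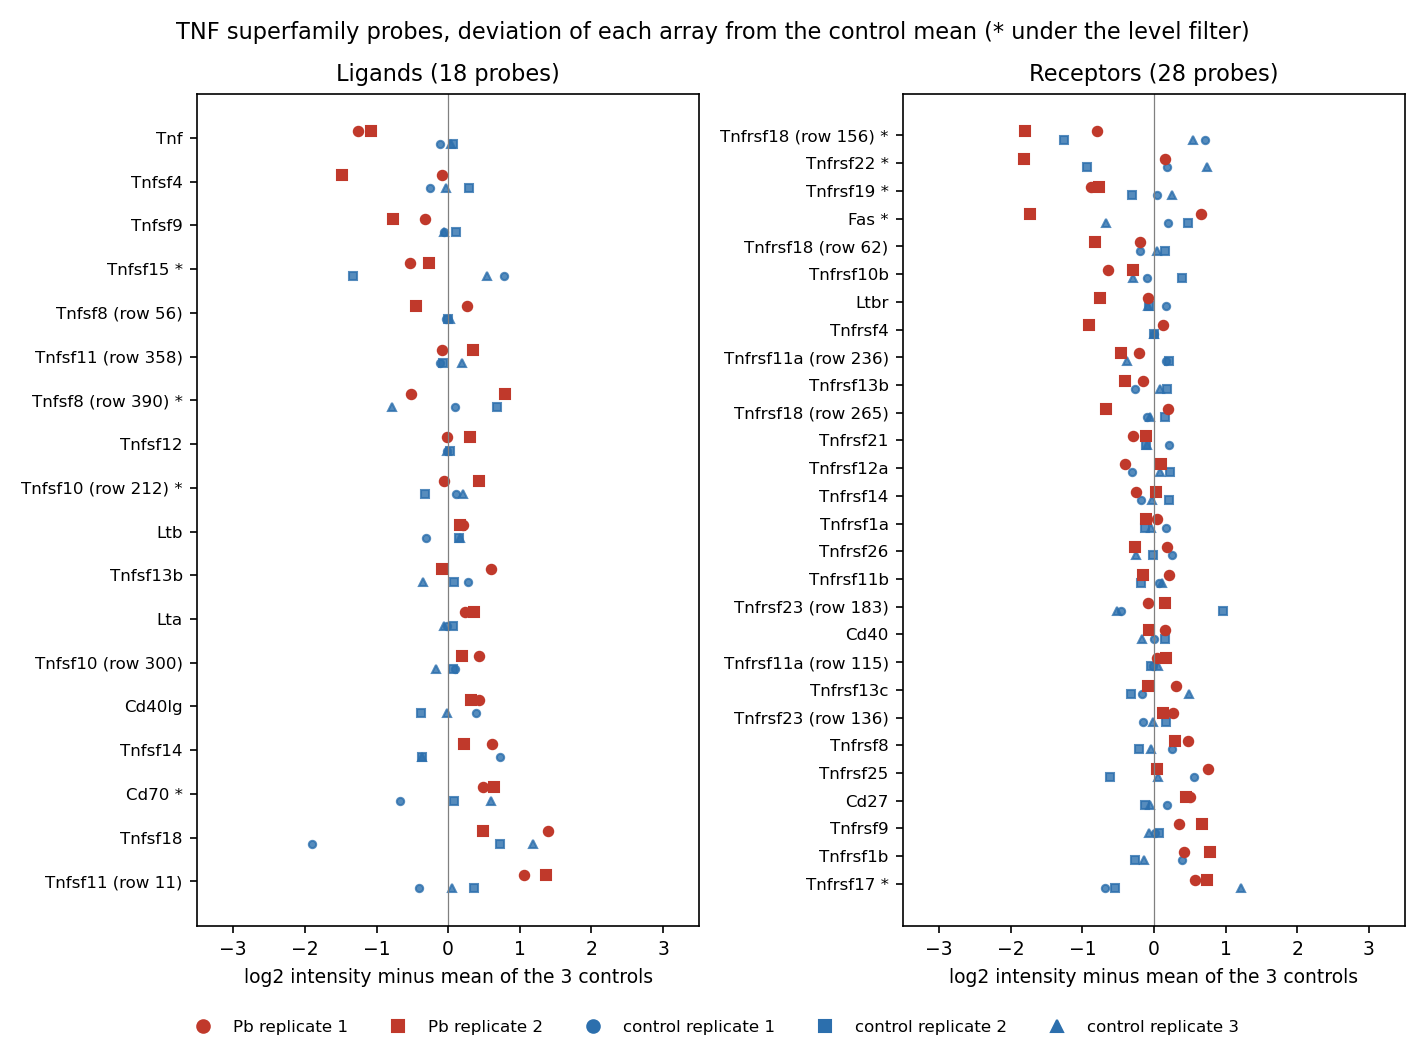
Deviation of each array from the control mean (log2) for the 18 ligand probes and 28 receptor probes, ordered by the Pb minus control difference with the lowest at the top. Red symbols are Pb arrays and blue symbols controls, and an asterisk marks probes under the level filter. Tnf has the lowest difference of the tested probes (-1.17), with both Pb arrays low, while Tnfsf4, Tnfrsf4 and Fas are low in Pb replicate 2 alone.

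Ligands lay on both sides of 0: of 18 probes 5 were below and 13 above, with a median of 0.18. The receptors had 16 of 28 below and a median of -0.07. Neither group had a member that passed, and the medians were not tested.

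Among ligands that costimulate T cells, Tnfsf9 (4-1BB ligand) was the 1 with both Pb arrays below the controls. It was at -0.01 and -0.46 in Pb, against 0.26, 0.43 and 0.25 in controls. The groups did not overlap, with a difference of -0.55 (-1.04 to -0.06, limma adjusted p = 0.621). Its receptor Tnfrsf9 (4-1BB), carried by activated T cells, lay on the other side, at 1.99 and 2.31 in Pb, against 1.65, 1.70 and 1.56 in controls. That difference was 0.51 (0.07 to 0.95, limma adjusted p = 0.621), but -0.12 with the neighbouring probes in place of the surface.

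Tnfsf4 (OX40 ligand), made by antigen-presenting cells, and its receptor Tnfrsf4 (OX40) split the 2 Pb arrays. Tnfsf4 was at -0.02 and -1.42 in Pb, against -0.19, 0.35 and 0.03 in controls, a difference of -0.79 (-1.83 to 0.26, limma adjusted p = 0.623). Tnfrsf4 was at 2.06 and 1.01 in Pb, against 1.93, 1.93 and 1.92 in controls, a difference of -0.39 (-1.17 to 0.38, limma adjusted p = 0.686). Pb replicate 1 lay among the controls for Tnfsf4 and above them for Tnfrsf4, and Pb replicate 2 alone was low for both. Their probes lie in array rows 63 and 95, where Pb replicate 2 was dim as deposited.

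Cd27, a receptor of T cells, was at 1.30 and 1.26 in Pb, against 0.99, 0.68 and 0.74 in controls. The groups were apart, with a difference of 0.48 (0.04 to 0.91, limma adjusted p = 0.621). This difference kept its sign in 16 of 16 alternative settings, though those that change only the filter could not alter it. Its ligand Cd70, from activated lymphocytes, lay under the level filter at -1.39 and -1.23 in Pb, against -2.54, -1.79 and -1.27 in controls. For Cd70 Pb replicate 1 lay within the controls, and the difference was 0.57.

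Tnfrsf8 (CD30), of activated lymphocytes, was at 1.74 and 1.57 in Pb, against 1.52, 1.06 and 1.24 in controls. The difference was 0.39 (-0.11 to 0.88, limma adjusted p = 0.621), with no overlap after position correction. The deposited intensity was 0.341 in Pb replicate 2, against 2.02 to 3.06 in controls, and Pb replicate 1 lay within the controls. Tnfrsf8 kept its sign in 14 of 16 alternative settings. The exceptions were -1.37 without position correction and -0.79 with all 6 arrays as deposited. The 2 probes of its ligand Tnfsf8 gave -0.09 and, under the filter, 0.14, and neither separated the groups.

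Tnfsf18 (GITR ligand) had a difference of 0.94 that rested on a single array. It was at -0.41 and -1.32 in Pb, against -3.72, -1.09 and -0.62 in controls, where control replicate 1 stood apart and the groups overlapped (-1.31 to 3.20, limma adjusted p = 0.733). Its receptor Tnfrsf18 (GITR), abundant on regulatory T cells, had 3 probes. In array row 62 it was at 2.22 and 1.58 in Pb, against 2.21, 2.56 and 2.45 in controls (difference -0.51, limma adjusted p = 0.621). In row 265 it was at 3.37 and 2.51 in Pb, against 3.08, 3.33 and 3.12 in controls (difference -0.24, limma adjusted p = 0.778). In both, Pb replicate 1 lay within or above the controls and Pb replicate 2 below them. The third probe, in row 156, lay under the filter at -3.42 and -4.44 in Pb, against -1.92, -3.88 and -2.09 in controls, with overlap and a difference of -1.30, the lowest of all 46 probes.

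Tnfsf14 (LIGHT), a ligand of T cells and immature dendritic cells, was at -0.98 and -1.36 in Pb, against -0.87, -1.95 and -1.95 in controls. The Pb values lay among the controls, with a difference of 0.42 (-0.50 to 1.34, limma adjusted p = 0.714). Its receptor Tnfrsf14 (HVEM) had -0.11. Tnfsf15 (TL1A), under the filter, had -0.40, and its receptor Tnfrsf25 (DR3) 0.39, with overlap in each. The pair that carries T cell help overlapped too: Cd40lg of activated T cells had 0.38 (-0.25 to 1.00) and Cd40 of B cells 0.04 (-0.42 to 0.49).

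Among members that can start cell death, Tnfrsf10b, the mouse TRAIL receptor, lay below the controls in both Pb arrays. It was at -1.04 and -0.69 in Pb, against -0.50, 0.00 and -0.69 in controls, a difference of -0.47 (-1.11 to 0.17, limma adjusted p = 0.623). Pb replicate 2 was level with the lowest control to the second decimal. This probe lies in array row 128, in the band where both Pb arrays were dim as deposited, and its 17 nearest probes had a median difference of -0.20. Its ligand Tnfsf10 (TRAIL), in array row 300, was at 2.20 and 1.95 in Pb, against 1.86, 1.84 and 1.60 in controls. Every Pb value was above the controls, with a difference of 0.31 (-0.14 to 0.76, limma adjusted p = 0.627). A second Tnfsf10 probe, under the filter, was at -2.25 and -1.75 in Pb, against -2.07, -2.51 and -1.97 in controls, with overlap and a difference of 0.18.

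Tnfrsf21 (DR6), another receptor with a death domain, was at -0.86 and -0.68 in Pb, against -0.36, -0.68 and -0.66 in controls, a difference of -0.21 (limma adjusted p = 0.713). It counts among the 6 that lay below, by under 0.01 for Pb replicate 2. The deposited Tnfrsf21 intensity was 0.458 and 1.77 in Pb, against 0.800, 0.628 and 0.749 in controls. Pb replicate 2 thus lay above the controls before correction. Fas, the receptor of Fas ligand, lay under the filter at -0.92 and -3.31 in Pb, against -1.39, -1.11 and -2.25 in controls. Its Pb arrays lay on opposite sides of the controls, so the difference of -0.54 describes neither. Tnfrsf22 and Tnfrsf23 are known in the mouse as decoy receptors for TRAIL: Tnfrsf22, under the filter, had -0.83 with overlap, and the 2 probes of Tnfrsf23 had 0.20 and 0.04.

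Tnfsf11 (RANK ligand), needed for osteoclasts and for lymph node development, had the largest difference above 0, and its probes disagreed. The probe in array row 11 was at -0.84 and -0.53 in Pb, against -2.31, -1.55 and -1.84 in controls, a difference of 1.21 (0.55 to 1.87, limma adjusted p = 0.621). The probe in row 358 was at 0.13 and 0.56 in Pb, against 0.10, 0.15 and 0.41 in controls, a difference of 0.13 (-0.39 to 0.64, limma adjusted p = 0.843). With position correction the groups were apart at the first probe and overlapped at the second. At the first probe the deposited intensity was 0.762 and 0.188 in Pb, against 0.177, 0.336 and 0.237 in controls. Pb replicate 2 thus lay within the controls before correction. The 15 probes nearest to it had a median difference of 0.38 after correction. The level of this gene is uncertain. The receptor Tnfrsf11a (RANK) had 0.11 and -0.33 at its 2 probes, and the soluble decoy Tnfrsf11b (osteoprotegerin) 0.03. Over the 6 genes with several probes, 6 of 8 probe pairs had the same sign.

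The B cell survival group showed overlap at all 4 probes. Tnfsf13b (BAFF) was at 1.06 and 0.38 in Pb, against 0.75, 0.55 and 0.12 in controls, a difference of 0.25 (-0.46 to 0.97). Its receptors Tnfrsf13c (BAFF receptor) and Tnfrsf13b (TACI) had 0.12 (-0.60 to 0.83) and -0.28 (-0.79 to 0.24). Tnfrsf17 (BCMA), the receptor of plasma cells, had 0.65 under the filter and was the 1 member with an intensity at or under 0, in control replicate 2. Tnfsf12 (TWEAK) and its receptor Tnfrsf12a (Fn14), linked to tissue repair, had 0.15 and -0.15. Tnfrsf19 (TROY), under the filter, was at -2.46 and -2.35 in Pb, against -1.54, -1.89 and -1.33 in controls. The groups did not overlap after position correction, and the difference was -0.82. The deposited Tnfrsf19 intensity was 0.281 and 1.25 in Pb, against 0.302, 0.246 and 0.332 in controls. Before correction Pb replicate 1 thus lay within the controls and Pb replicate 2 above them. Tnfrsf26 overlapped at -0.04.

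The array around the Tnf probe, in row 134 and column 55, was examined because both Pb arrays were dim there as deposited. In that row the median deviation from the controls was -0.41 in Pb replicate 1 and -1.32 in Pb replicate 2, while Tnf deviated by -1.69 and -2.11. After correction the 90 probes of the row had a median difference of 0.05 (quartiles -0.16 and 0.27). Of the 90, 16 had both Pb arrays below the controls, or 17.8%, and 17 had both above, and Tnf had the 4th lowest difference. In the rows from 129 to 139 the share below ranged from 9.0% in row 133 to the 17.8% of row 134.

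The 17 probes within 1 row and 3 columns of Tnf had a median difference of 0.04, with 4 below and 4 above all controls. They were not alike by row. The 6 in row 134 had a median of -0.30, with 3 below the controls, whereas the 11 in rows 133 and 135 had 0.19, with 1 below. Lrrc36, 2 columns from Tnf, was lower than Tnf in difference, at -2.17 and -2.99 in Pb, against -0.34, -0.24 and -0.48 in controls (-2.23, limma adjusted p = 0.150). Baz1a, the next probe on that side of Tnf, was at 4.14 and 4.52 in Pb, against 4.64, 4.69 and 4.57 in controls (-0.30, limma adjusted p = 0.631), and an unnamed probe 3 columns away had -0.38. On the other side Dmtn had -0.05 and Gm609, under the filter, 1.07. In the rows next to it Dctn4 had 0.41, Nfkbid -0.03 and Tex10 0.05. Of the 6 nearest probes in row 134, the 3 with both Pb arrays below the controls thus stood on 1 side of Tnf, and the part of array position in its level was not tested. Of the 162 tested probes as low as Tnf with both Pb arrays below the controls, 10, or 6.17%, lay in rows 121 to 140, which hold 4.64% of tested probes.

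**Figure D4:**
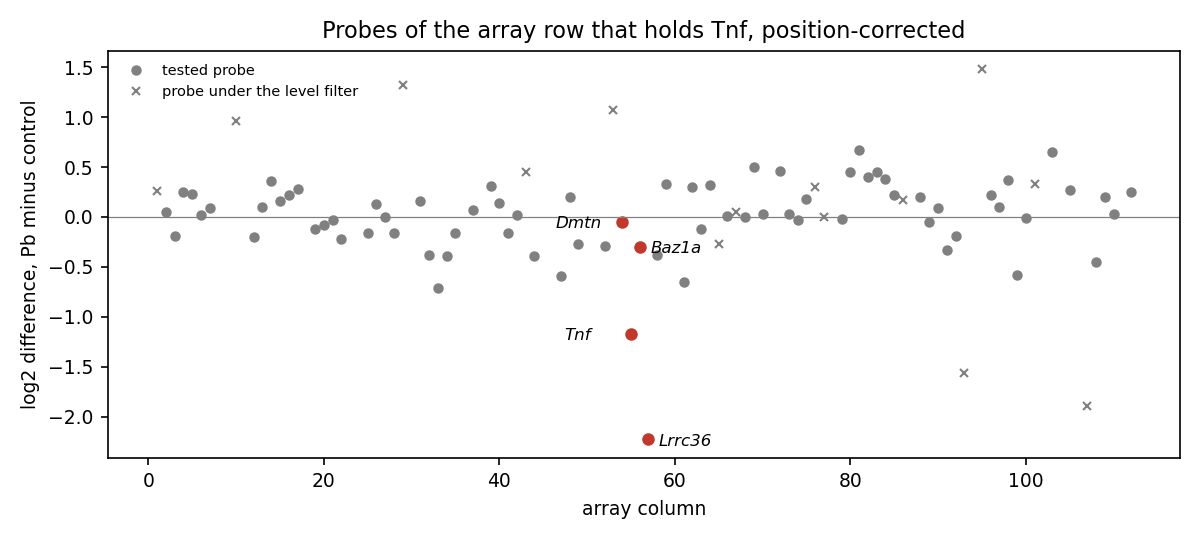
Pb minus control log2 difference of the 90 probes in the array row of Tnf against array column, with Tnf and its named tested neighbours in red. Tnf lies at -1.17, Lrrc36 at -2.23 and Baz1a at -0.30, while Dmtn lies near 0 at -0.05.

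Other genes of the pathway were read from lists set down with the design, with 1 probe per gene. Of 25 listed adaptors and kinases next to the receptors, 20 were measured and 19 tested, and 0 passed in limma. Of the 19, 1 was under an unadjusted p of 0.05, against 7.23% of all tested probes, and the median was 0.05, against 0.03 over all tested genes. The highest was Traf2, an adaptor of most TRAF-binding receptors, at -0.85 and -0.08 in Pb, against -1.73, -1.38 and -1.74 in controls (1.15, limma adjusted p = 0.621), followed by Fadd (0.34). The lowest were Traf5 (-1.32), which was low in Pb replicate 2 alone, and Map3k14 (-0.29), the kinase of the alternative NF-kB pathway.

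Of 9 tested NF-kB subunits and inhibitors 0 passed in limma and 0 were under an unadjusted p of 0.05, with a median of 0.16 and differences from -0.07 for Nfkbie to 0.23 for Nfkbib. Rela had -0.03 and Rel 0.23. Of 16 tested transcripts known to be induced by TNF 0 passed in limma and 0 were under an unadjusted p of 0.05, with a median of 0.01. They ran from Csf1 (-0.55) and Mmp9 (-0.32), for which both Pb arrays lay below the controls, to Ptgs2 (0.32) and Sele (0.45). Of the 19 measured, 3 had both Pb arrays below the controls, against 11.1% of all genes, and 1 had both above, against 13.1%.

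Of 10 transcripts listed for lymphotoxin and lymphoid tissue 0 passed in limma and 0 were under an unadjusted p of 0.05. Their median was -0.09, and their dependence on lymphotoxin was not tested. The lowest were Ccr7 (-0.34), which guides T cells and dendritic cells into the T cell zone, and Cr2 (-0.14). The highest were Madcam1 (0.23) and Glycam1 (0.39). Of 16 genes that make, regulate or shed TNF 0 passed in limma and 1 was under an unadjusted p of 0.05, against 7.23% of all tested probes. The median was -0.16, against 0.03 over all tested genes. Of the 16, 3 had both Pb arrays below the controls, against 11.1% of all genes, and 3 had both above, against 13.1%. The sensor Tlr4 had -1.79, at -0.23 and -3.69 in Pb, against -0.38, -0.16 and 0.02 in controls, so Pb replicate 2 alone was low. Atf2, a transcription factor, had -1.23, at -0.07 and -1.92 in Pb, against 0.08, 0.24 and 0.39 in controls, with no overlap. The highest were Rhbdf2 (0.63, limma adjusted p = 0.621), which brings the sheddase of TNF to the cell surface, and Elavl1 (0.37).

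Marker genes of the cell types in a spleen were summed from position-corrected intensities, so the brightest genes weigh most in each sum. No marker probe had an intensity at or under 0. Macrophages and monocytes are a main source of TNF. Their 7 markers summed to 64.1 and 52.1 in Pb, against 62.7 to 70.0 in controls. That sum leans on its brightest member, Marco, at 5.16 and 4.35 in Pb, against 5.25, 5.37 and 5.22 in controls (log2). The median log2 difference of the 7 was 0.16. Of the 7, 1 lay below all controls, against 11.1% of all genes, and 2 above, against 13.1%. For 7 T cell markers the sum was 100.4 and 84.5 in Pb, against 80.9 to 102.3 in controls, and for 7 B cell markers 192.7 and 172.8 in Pb, against 167.3 to 185.4 in controls. The 5 natural killer cell markers summed to 22.5 and 27.1 in Pb, against 16.6 to 21.3 in controls. Of these 5 markers 1 lay above all controls, against 13.1% of all genes. The 5 dendritic cell markers summed to 32.3 and 25.9 in Pb, against 24.9 to 26.9 in controls. The 6 stromal markers summed to 260.3 and 204.0 in Pb, against 212.1 to 264.6 in controls, and 3 erythroid markers to 322.9 and 411.2 in Pb, against 267.8 to 422.9 in controls. Markers of the exocrine pancreas, which lies against the spleen, summed to 118.6 and 154.3 in Pb, against 2.45 to 2.95 in controls. All 8 of 8 lay above all controls, against 13.1% of all genes. Past the adjusted threshold in limma were 6 of 8, against 0.0572% of all tested probes. These markers were listed with earlier results of the same data known, so their counts are a description only. The part of these markers in the values of the TNF superfamily was not tested.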

How the data were processed

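The deposited values, by their size and their few values at or under 0, are probe intensities on a linear scale that the authors appear to have divided by a median per array (array medians 0.972 to 0.987). The sources used here name no scanner software, background correction or normalisation, no detection calls were used, and the number of arrays limits the precision. Genes were named from the platform annotation (21615 probes with 1 symbol, 681 with several, 13291 unlisted). The probe identifier was read as array row and column.

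Values under the 1st percentile of an array's positive intensities were raised to it, and log2 was taken. The last rows of the array (638 probes, no members) and Pb replicate 3 were left out. A smooth surface over row, column and level was then fitted and subtracted for every array in 2 rounds, taking as target the average of 4 arrays, the controls and Pb replicate 1 (bam of mgcv 1.9.3, with 40 basis functions along rows, 8 along columns and 6 along level). Correlation of Pb replicate 2 with controls was 0.663 to 0.672 before and 0.925 to 0.927 after, a gain that is partly built in. limma 3.58.1 in R 4.3.3 (lmFit, then eBayes, with two-sided p adjusted by Benjamini-Hochberg) was fitted to probes with a mean at or above the 30th percentile. The steps were tested on simulated data with log2 changes of 2 and 4 in either direction, in probes above the median level. The members changed by less and Tnf was dimmer, so that simulation does not cover them. For different probes of a gene each is given, and in pathway and marker lists the brightest was used.

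Named with values by array were Tnf, Lta, Ltb, Tnfrsf1a and Tnfrsf1b, members whose groups did not overlap, the 6 largest tested differences in each direction, and their other probes. Named beside them were 2 genes from each end of a pathway list and the named probes within 1 row and 3 columns of Tnf. Tnfrsf4, Cd70, Fas and Tnfsf13b were added after their values were seen. Members, lists and settings were chosen with earlier results of these data known.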

Additional observations from a re-analysis of the deposited data

How the results depend on the processing

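Tnf was lower in Pb in 16 of 16 alternative settings, with log2 differences from -1.90 (no position correction) to -0.96 (pseudocount of 0.1). The Pb arrays lay below the controls in 15, the exception being all 6 arrays as deposited. These settings reuse the arrays in which Tnf was first seen low, so they describe the processing and add no support. Those that change only the filter leave each difference as it was. The replicate block gave the differences found without control replicate 3. The count of members past the adjusted threshold, which here takes in Tnf, was 0 in the 15 settings other than leaving out Pb replicate 1 (0 to 3 with 1 array left out), where Pb replicate 2, the array of larger spread, stands alone and is assumed to vary like the controls. Apart from Tnf, which is not tested here, these were Tnfsf4 (-1.49) and Tnfrsf4 (-0.91), with 1 Pb array behind each. Over all probes the 14 calls became 0 without position correction, 0 without the filter, 0 with all 6 arrays, 7 under array weighting, and 4 to 2745 on leaving 1 array out (5, 4 and 6 on dropping controls 1, 2 and 3, 2745 on dropping Pb replicate 1). The median of the members became -0.13 with neighbours in place of the surface, -0.0245 with scaling to the 75th percentile, -0.0019 with quantile normalisation, -0.0514 with the replicate block, and -0.0514 to 0.15 with 1 array left out. That median has no sign to rely on. The 6 members below all controls became 7 to 17 with 1 array left out, 17 without Pb replicate 1. The 8 above became 5 with neighbours, 5 with scaling, 5 with quantile normalisation, 5 with all 6 arrays, and 10 to 18 with 1 array left out (14 without Pb replicate 1, 18 without Pb replicate 2). Of 736 comparisons of single members 81 changed sign, none with a call, and 14 of 46 probes kept their sign in every setting. The 736 include the settings that change only the filter, where no sign could change. The cause was not tested, except that fewer arrays make separation of the groups easier (29.8% of all probes below and 36.4% above without Pb replicate 1). Same-numbered arrays deviated with r = 0.03 and -0.0039, and the titles give the numbers no meaning. The replicate block, which rests on 2 pairs, gave 11 calls over all probes and 0 among members. Dim signal limits the 9 members under the filter, which were not tested. It also limits members above the filter with a mean under the 50th percentile, Tnf among them.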
